A study of Caenorhabditis elegans with 4 samples.

Results

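The regions described here lie in the 2 piRNA cluster domains of chromosome IV of Caenorhabditis elegans. They come from a ChIP-seq experiment labelled NHR-129, which belongs to the nuclear receptors, a large group of transcription factors in worms. Members are the regions of the combined peak list on IV whose midpoint falls from 13.5 to below 17.2 Mb, called the large domain here, or from 4.5 to below 7.0 Mb, called the small domain. All positions are WormBase WS220 coordinates. The large domain held 415 regions and the small domain 150, together 565 of 1758 on IV and of 11110 in the whole list. The limits were drawn around the known clusters and used no peak value, but the domains were singled out with earlier results of these data known.

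All samples came from hermaphrodites of strain OP339 at the L2 larval stage, kept at 20 °C. The animals are mutant for unc-119 (allele ed3) and carry the bombardment transgene wgIs339, an nhr-129 fusion with TY1, EGFP and FLAG tags together with unc-119. The strain was not outcrossed, and the fusion was recorded in seam cells, pharynx and head neurons; the label names no germline expression. Chromatin precipitated with anti-GFP antibodies gave 2 ChIP samples, and total chromatin gave 2 Input samples. Each ChIP sample has its own peak list, and 1 further list is labelled combined. Input peak lists were not analysed here. The labels do not say that the replicates were separate cultures, and the spread between them may be technical. The lists hold positions and q-values without read counts, and the depth is therefore unknown.

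piRNAs, called 21U-RNAs in C. elegans for their length and first base, are small RNAs of the germline that guide the Piwi protein PRG-1 to silence transposons and other foreign sequence. Most of them are made from very short genes, each a transcription unit of its own with an upstream motif. These genes are packed among ordinary genes in 2 broad stretches of IV. In a RefSeq gene table of a later assembly, WBcel235, 14714 of 15363 piRNA genes lay on IV, or 95.8%. Read in gene order and in blocks of 50 protein-coding genes, they fell into 2 runs. The second run held 11544 piRNA genes beside 500 protein-coding genes, and the first run held 2830 beside 450. The table was not matched to the regions, because the peaks are placed on another build, so no region is assigned to a gene.

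The peak names differ from the label throughout the lists. All 565 members carried the name GEI-11 in the combined list, and 0 carried NHR. The 312 replicate 1 peaks and 337 replicate 2 peaks of the domains carried GEI-11 too. So did all 11110 regions of the combined list, all 7583 replicate 1 peaks and all 7109 replicate 2 peaks. The name is thus not particular to the domains. GEI-11 is an earlier name of SNPC-4, a subunit of the small nuclear RNA activating complex that is known from other work to bind at piRNA genes. Whether the lists are those of NHR-129 or of GEI-11 was not tested, and they are called the lists labelled NHR-129.

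The large domain was the denser of the 2 in every list. The combined list had 112 regions per Mb in the large domain and 60.0 per Mb in the small domain, a ratio of 1.87. Replicate 1 had 57.8 peaks per Mb in the large domain and 39.2 in the small domain, and replicate 2 had 64.6 and 39.2. The means were 61.2 ± 4.78 peaks per Mb in the large domain and 39.2 ± 0 in the small domain (SD, n = 2 replicates; both replicates had 98 peaks in the small domain). Peaks covered 4.96% of the large domain and 3.75% of the small domain in the combined list. With 2 ChIP samples of 1 condition no test over samples was made, and all ratios are descriptions of these lists. In the plot of density by window the large domain falls into a dense and a sparse stretch, and the windows of the small domain overlap those of the sparse stretch.

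**Figure D1:**
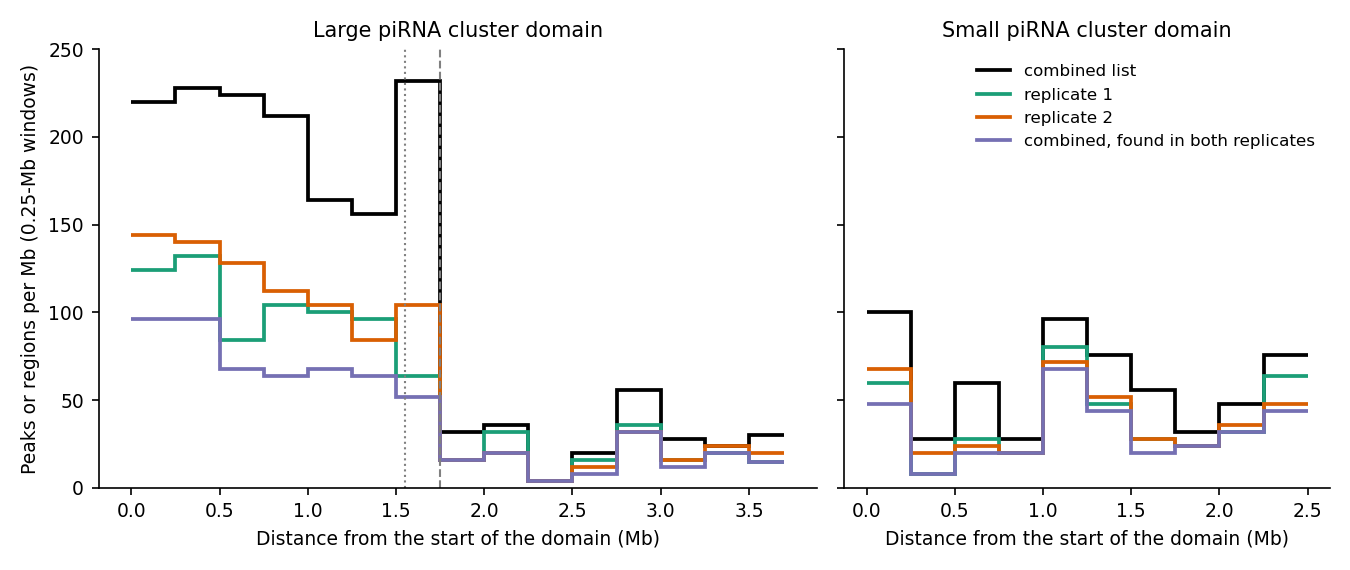
Peaks or regions per Mb in 0.25-Mb windows, against the distance from the start of the large domain (first panel) and of the small domain (second panel), for the combined list, both replicate lists and the combined regions found in both replicates. The dotted line marks the end of the stretch that is dense in both replicates and the dashed line the fall in the combined list; the last window of the large domain is 0.2 Mb long.

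The comparison with the rest of IV depended on a dense stretch next to the large domain. The rest of IV had 106 regions per Mb in the combined list, so the ratios were 1.06 for the large domain and 0.567 for the small domain. The large domain was at 0.874 of the rest in replicate 1 and 1.02 in replicate 2, and was thus not separated from it beyond the spread of the lists. The small domain was lower in both, at 0.592 and 0.619. The rest of IV includes the dense stretch from 12 Mb to the start of the large domain, which had 307 regions per Mb. Without it the rest had 74.9 per Mb, and the ratios became 1.50 for the large domain and 0.801 for the small domain. By replicate they were 1.19 and 1.47 for the large domain and 0.805 and 0.891 for the small domain.

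The density of the large domain rested on its first part. From 13.5 Mb, 7 windows of 0.25 Mb in a row held between 39 and 58 combined regions, and the next held 8. The highest density of the combined list was in the window from 15.0 to 15.25 Mb, at 232 regions per Mb, while replicate 1 had its highest from 13.75 to 14.0 Mb (132 peaks per Mb) and replicate 2 from 13.5 to 13.75 Mb (144). The lowest window, 15.75 to 16.0 Mb, held 1 region in the combined list and 1 peak in each replicate. Up to 15.25 Mb the combined list had 205 regions per Mb, and beyond it 28.7, a ratio of 7.14. Replicate 1 had 101 and 19.5 peaks per Mb in these stretches, and replicate 2 had 117 and 17.9. Both replicates thus show the fall, which was located after the counts had been seen. The sparse stretch, from 15.25 to 17.2 Mb, was 0.479 times as dense as the small domain and 0.383 times as dense as the rest of IV without its dense stretch.

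The lists placed the fall at different points. In windows of 50 kb, replicate 1 held 13 peaks and replicate 2 held 19 from 15.0 to 15.05 Mb, and 1 and 2 in the next window. The combined list went on with 8, 19, 8 and 4 regions in the 4 windows up to 15.25 Mb. This shoulder, from 15.05 to 15.25 Mb, held 39 combined regions (195 per Mb) but 3 peaks of replicate 1 and 7 of replicate 2. Of the 39, 32 were overlapped by neither replicate list, or 82.1% (95% Wilson interval 67.3 to 91.0%, counting error only, as for all such intervals here). Over all chromosomes this share was 26.9%. On the -log10 scale the median q-value was 2.62 for the 39 regions and 2.53 for these 32, close to the limit of 2 that all peaks pass. The dense stretch before it, from 13.5 to 15.05 Mb, had a median of 5.53. The shoulder was set apart after its counts were seen. It raises the combined density of the large domain, but no such block stands in a replicate list.

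The small domain was more even than the large domain taken as a whole. Its 10 windows of 0.25 Mb had 60.0 ± 26.7 combined regions per Mb (SD over windows), from 28.0 to 100. The 14 full windows of the large domain had 117 ± 94.7, up to 232, and 45 windows of the rest of IV had 106 ± 102. The spread of the large domain includes its fall at 15.25 Mb, and the windows before that ran from 156 to 232. That of the rest of IV includes its dense stretch, at 307 per Mb. The highest density of the small domain was 100 per Mb, from 4.5 to 4.75 Mb, followed by 96.0 from 5.5 to 5.75 Mb. The lowest, 28.0, was reached in both 4.75 to 5.0 Mb and 5.25 to 5.5 Mb. Windows of 1 sample lie side by side and are not replicates. Replicate 1 ordered its extremes otherwise, with 20 peaks from 5.5 to 5.75 Mb as its highest count and 2 from 4.75 to 5.0 Mb as its lowest. Replicate 2 had 18 and 5 peaks there, its highest count and its lowest, the lowest being shared with the window from 5.25 to 5.5 Mb. The window from 5.5 to 5.75 Mb was thus the peak of the small domain in each replicate.

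Regions of the large domain were narrower than those of the small domain, and the difference in density between the 2 lay in the narrow ones. The median width of combined regions was 297 bp in the large domain (quartiles 170 and 527 bp), 512 bp in the small domain (353 and 724 bp) and 410 bp in the rest of IV (263 and 665 bp). The neighbouring dense stretch of the rest of IV was like the large domain, with a median of 294 bp (155 and 525 bp). Replicate 1 had medians of 368 bp in the large domain and 503 bp in the small domain, and replicate 2 had 348 and 482 bp. Regions of 500 bp or more made up 26.7% of the large domain, 52.0% of the small domain and 37.0% of the rest of IV, with 26.7% in the neighbouring dense stretch as well. Per Mb there were 30.0 such regions in the large domain and 31.2 in the small domain, a ratio of 0.962. Regions under 500 bp numbered 82.2 per Mb in the large domain and 28.8 in the small domain, a ratio of 2.85. Among wide regions alone the large domain was thus no denser than the small domain. In its dense stretch, however, there were 43.2 wide regions per Mb, and in its sparse stretch 14.4.

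Very short regions were more frequent in the large than in the small domain, but they were not particular to it. The large domain held 52 combined regions under 100 bp and 12 of 10 bp or less, and the small domain 3 and 0. The rest of IV held 99 and 20, of which the neighbouring dense stretch had 68 and 12 among 461 regions. Of the 52, 48 lay in the dense stretch. Sparse-stretch regions had a median width of 500 bp (quartiles 350 and 733 bp), near that of the small domain.

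Width rose with the strength of a region, yet most classes of strength showed narrower regions in the large domain taken as a whole. The authors' q-values are used only to rank or class regions within a list. At -log10 q-values from 2 to below 5, the median width was 188 bp in the large domain (203 regions), 366 bp in the small domain (61) and 280 bp in the rest of IV (500). From 5 to below 10 the medians were 282, 445 and 391 bp in the same order. From 10 to below 20 they were 448 bp in the large domain, 604 bp in the small domain and 521 bp in the rest of IV. From 20 to below 40 the large domain had 570 bp, the small domain 567 bp and the rest of IV 711 bp. At 40 or more they were 804 bp (38 regions), 1338 bp (13) and 1481 bp (92). The large domain thus had the lower median of the 2 domains in 4 of 5 classes, the class from 20 to below 40 being the exception.

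**Figure D2:**
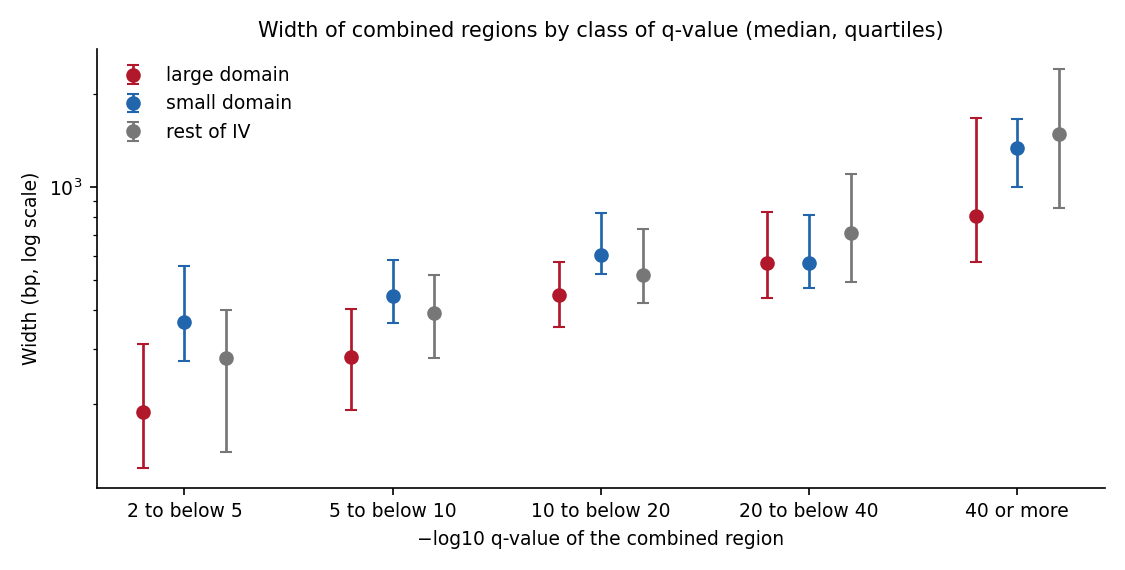
Width in bp (log scale) of combined regions by class of -log10 q-value in the large domain, the small domain and the rest of IV; points are medians and bars run between the quartiles of the regions in a class. The large domain has the lowest median in 4 of the 5 classes, and its 570 bp stand beside 567 bp in the small domain in the class from 20 to below 40. It is drawn as a whole, and its sparse stretch alone had a higher median than the whole in every class.

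A smaller share of the large domain than of the small domain was found again in both replicates. Of its 415 combined regions, 158 were overlapped by at least 1 bp by both replicate lists, or 38.1% (95% Wilson interval 33.5 to 42.8%). In the small domain 82 of 150 were, or 54.7% (46.7 to 62.4%). The background over all chromosomes was 48.5%, and in the rest of IV it was 45.9%. The neighbouring dense stretch of the rest of IV, with 186 of 461 (40.3%, 36.0 to 44.9%), was close to the large domain. The share was 16.6 percentage points lower in the large domain than in the small domain (difference -16.6, 95% Newcombe interval -25.6 to -7.30). Against the rest of IV, the large domain was lower by a difference of -7.86 points (-13.2 to -2.33) and the small domain higher by 8.73 points (0.259 to 17.0). Neighbouring regions are not independent, so these intervals may be too narrow. Regions found in neither replicate numbered 158 in the large domain (38.1%) and 42 in the small domain (28.0%), against 361 in the rest of IV (30.3%). Over all chromosomes they made up 26.9%, which the small domain was near.

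The lower share went with the narrow regions. Among regions of 500 bp or more, 83 of 111 in the large domain (74.8%) and 53 of 78 in the small domain (67.9%) were found in both replicates, a difference of 6.83 points with an interval of -5.99 to 19.9. The rest of IV had 74.0%. Among narrower regions the counts were 75 of 304 (24.7%) in the large domain and 29 of 72 (40.3%) in the small domain, a difference of -15.6 points (-28.0 to -3.86). The rest of IV had 29.4%, from which the large domain was not separated (-4.76 points, -10.4 to 1.27), and neither was the small domain (10.9 points, -0.227 to 22.8). Strength mattered in the same way. At -log10 q-values under 5, 1 of 203 regions in the large domain and 0 of 61 in the small domain were in both replicates. The rest of IV had 6 of 500 (1.20%). From 5 to below 10 the counts were 44 of 96 in the large domain (45.8%, interval 36.2 to 55.8%) and 26 of 33 in the small domain (78.8%, 62.2 to 89.3%). In the rest of IV this class had 147 of 290 (50.7%, 45.0 to 56.4%), near the large domain. At 20 or more every region of both domains was in both replicates, as was every region of the rest of IV. The dense stretch of the large domain had 39.1% in both (125 of 320), the shoulder 5.13% (2 of 39) and the sparse stretch 55.4% (31 of 56). The sparse stretch and the small domain differed by 0.690 points, with an interval of -14.4 to 15.3.

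**Figure D3:**
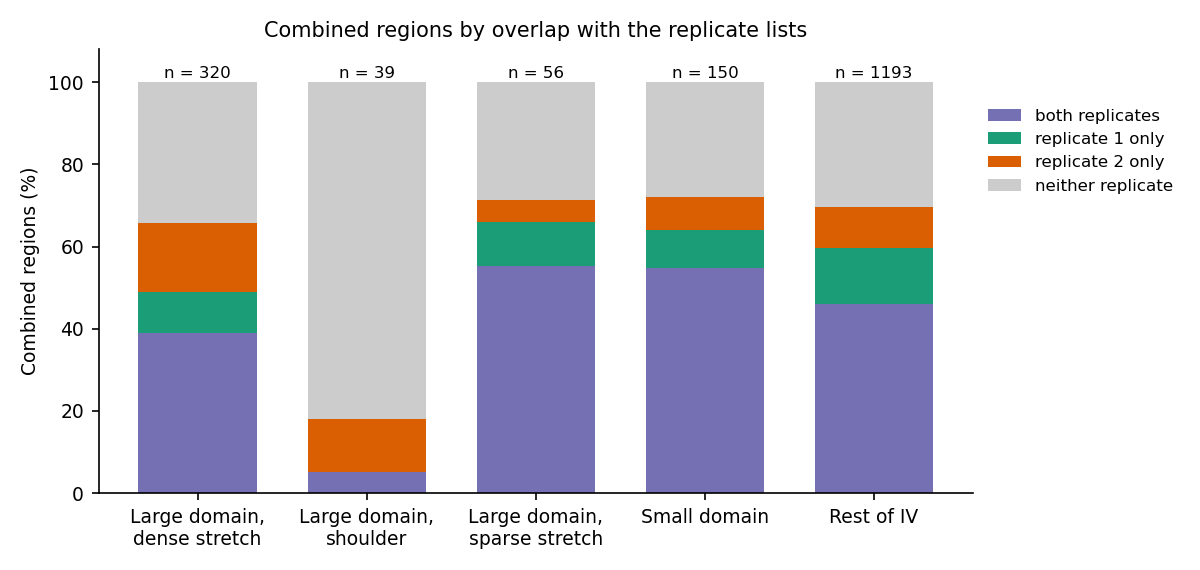
Share (%) of combined regions with overlap in both replicates, in replicate 1 only, in replicate 2 only or in neither, in the 3 stretches of the large domain, in the small domain and in the rest of IV; n is the number of regions. The shoulder stands apart with 82.1% in neither list, against 26.9% over all chromosomes. The sparse stretch (55.4% in both) and the small domain (54.7%) are 0.690 points apart.

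Between the replicate lists, the shared part of replicate 2 was lower in the large than in the small domain beyond counting error, and that of replicate 1 was not separated. Of the replicate 1 peaks, 166 of 214 in the large domain (77.6%, Wilson interval 71.5 to 82.6%) and 82 of 98 in the small domain (83.7%, 75.1 to 89.7%) overlapped a replicate 2 peak, with 71.7% over all chromosomes. Of the replicate 2 peaks, 165 of 239 in the large domain (69.0%, 62.9 to 74.6%) and 84 of 98 in the small domain (85.7%, 77.4 to 91.3%) overlapped a replicate 1 peak, with 77.6% over all chromosomes. The difference between the domains was -6.10 points for replicate 1 (-14.6 to 3.85), an interval that includes 0, and -16.7 points for replicate 2 (-25.0 to -6.73). Whether these differences themselves differ was not tested. The rest of IV had 75.1% shared in replicate 1 and 79.1% in replicate 2. Its dense stretch next to the large domain had 68.9% and 65.5%, so a low share was not particular to the large domain. In the dense stretch of the large domain 49 of 49 wide replicate 1 peaks were shared, and 83 of 124 narrower ones (66.9%). Over all chromosomes these shares were 92.8% and 62.5%. Replicate 2 had 42 of 45 wide peaks (93.3%) and 89 of 152 narrower ones (58.6%) shared there, against 95.2% and 70.5% over all chromosomes.

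Where both replicates had a region, they placed it closely and ranked it alike, much as in the rest of IV. Peaks were matched by overlap with the same combined region, which itself limits how far midpoints can differ. Midpoints of matched peaks differed by a median of 21.0 bp in the large domain (148 pairs of single peaks) and 23.5 bp in the small domain (79 pairs). The median overlap, as a share of the joint span, was 86.2% in the large domain and 87.6% in the small domain. Spearman's rho between the q-values of both replicates was 0.893 over 158 regions of the large domain and 0.888 over 82 regions of the small domain. The rest of IV had a median shift of 27.2 bp, a median overlap of 86.1% and a rho of 0.857 over 548 regions. These values are descriptions across regions of the same 2 samples and have no p-value. In the small domain 56 of 82 regions (68.3%) had the smaller q-value in replicate 1, and in the large domain 91 of 158 (57.6%). The share in the rest of IV was 63.1%.

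**Figure D4:**
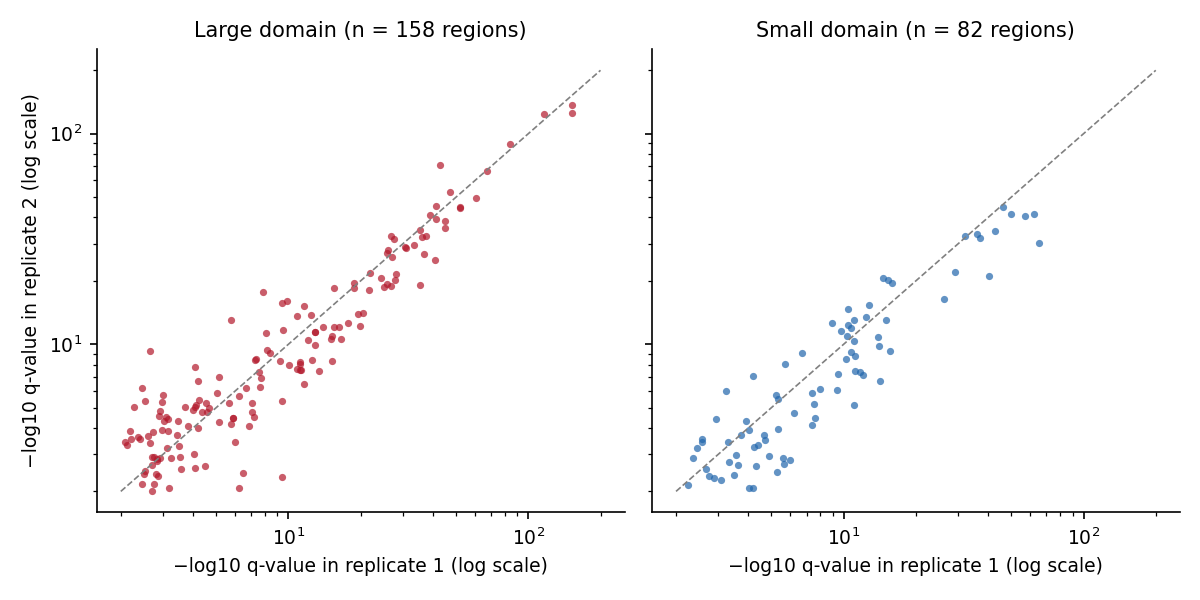
-log10 q-values (log scales) in replicate 1 (x axis) and replicate 2 (y axis) of the combined regions found in both replicates, with 158 points in the large domain and 82 in the small domain; for regions with several peaks the smallest q-value is drawn, and the dashed line marks equal values. The highest values of the large domain are 152.1 in replicate 1 and 137.4 in replicate 2, and those of the small domain 65.4 and 44.9.

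The strongest members lay in the large domain. When its regions were ordered by their average q-value rank over the replicates, the first was IV 13887053 to 13888825 (1773 bp), with ranks 35 and 31 in replicates 1 and 2 and a q-value of 5.15e-220 in the combined list. Second came 14619457 to 14624353 (4897 bp, ranks 34 and 39, combined q-value 2.78e-262), which was rank 11 of the whole combined list. The next were 14069912 to 14072309 (2398 bp, 1.37e-217) and 14463545 to 14465228 (1684 bp, 1.79e-116). These 4 lay in the dense stretch. The fifth, 16491067 to 16493468 (2402 bp, 1.29e-128), was in the sparse stretch, with ranks 203 and 181. The widest region of the large domain was 15036686 to 15041809 (5124 bp, 1.24e-121), at the end of the dense stretch. Replicate 1 covered it with 2 peaks, and replicate 2 with 1.

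The leading regions of the small domain were weaker and lay close together. The first was IV 5604195 to 5605602 (1408 bp), with ranks 232 and 353 and a combined q-value of 3.07e-76. The others were 5593621 to 5594449 (829 bp, 1.08e-80), 5655104 to 5657772 (2669 bp, 1.06e-98), 4749595 to 4750977 (1383 bp, 5.96e-42) and 5589665 to 5591623 (1959 bp, 7.44e-87). All but 1 of these 5 thus fell in the window from 5.5 to 5.75 Mb. The region from 5655104 was also the widest of the small domain, ahead of 6554739 to 6557376 (2638 bp, 4.22e-39). The best rank of the small domain in the combined list was 251, against 11 in the large domain and 16 in the rest of IV. Of the strongest 10% of the combined list, the large domain held 38 regions (9.16% of its own) and the small domain 13 (8.67%), with 92 in the rest of IV (7.71%). Strong regions were thus about as frequent among the members of both domains.

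Regions of the large domain stood closer together than those of the small domain and formed longer runs. The median gap between neighbouring combined regions was 2018 bp in the large domain, 6650 bp in the small domain and 2508 bp in the rest of IV. Gaps of at most 1 kb made up 31.4% in the large domain (130 of 414), 13.4% in the small domain (20 of 149) and 32.0% in the rest of IV (381 of 1190). The neighbouring dense stretch of the rest of IV was tighter than the large domain, with a median gap of 984 bp and 50.7% of gaps at most 1 kb. Close spacing was thus not particular to the large domain, whose sparse stretch had a median of 10028 bp and 12.7%. Runs joined by such gaps took in 195 of the 415 regions of the large domain (47.0%) and 34 of the 150 of the small domain (22.7%). Runs were not counted outside the domains. The longest run of the large domain, IV 15015067 to 15035671, had 12 regions in 20605 bp, 5 of them found in both replicates. It ends just before the widest region. The tightest run of at least 3 regions, 14335247 to 14336272, had 3 in 1026 bp, and none was in both replicates. Pairs could be tighter, the tightest being 13637768 to 13638191 (424 bp). In the small domain the longest run, 5600149 to 5608299, had 6 regions in 8151 bp, 4 of them in both replicates, and includes its leading region. Its tightest run of at least 3 regions was 5664381 to 5666769, with 3 in 2389 bp, and its tightest pair 6836773 to 6837810 (1038 bp).

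Each domain also had long empty stretches. The longest in the large domain ran from 15702351 to 15931073 (228723 bp), within the sparse stretch, and was touched by 1 peak of replicate 2 and 0 of replicate 1. In the small domain it ran from 5395061 to 5537661 (142601 bp), reaching into the window that is densest in both replicates, with 0 peaks in either replicate list. The large domain had 12 gaps over 50 kb, 11 of them in the sparse stretch, and the small domain had 10.

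A strong locus of the large domain was missing from the combined list. Both replicates had peaks at IV 14609443 to 14613856 (4414 bp), with q-values of 1.03e-187 in replicate 1 (rank 21) and 1.91e-131 in replicate 2 (rank 35), and no combined region overlapped it. It was the strongest replicate 1 peak of the large domain. A weaker shared locus beside it, 14614073 to 14614679 (607 bp), with q-values of 3.35e-19 and 7.62e-17, was missing too. The strong combined region that starts at 14619457 follows both. No other shared locus of IV was missing. Replicate 1 peaks without any combined region numbered 9 of 214 in the large domain and 1 of 98 in the small domain. The rest of IV had 8 of 746. For replicate 2 the counts were 13 of 239, 1 of 98 and 14 of 714 in the same order. Over all chromosomes there were 321 of 7583 in replicate 1 and 335 of 7109 in replicate 2, so such peaks were not particular to the large domain.

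Regions next to the domain limits were mostly weak. At the lower limit of the large domain, the first region inside (q-value 2.70e-06) lay 1.10 kb from it and the last outside (0.000289) 3.16 kb. At its upper limit the nearest regions were 81.3 kb inside (327 bp, 0.000171) and 49.9 kb outside (451 bp, 7.41e-41). For the small domain the nearest regions lay 11.7 kb inside (0.00190) and 15.2 kb outside (0.00469) at the lower limit, and 41.1 kb inside (0.000135) and 16.7 kb outside (4.22e-05) at the upper limit.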

How the data were processed

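Peaks of 2 ChIP samples and 1 combined list were analysed. Per the file headers the build is WormBase WS220, and the deposited lines name PeakSeq as their source. Each deposited peak has a start, an end and the authors' q-value, which was below 0.01 throughout. How the combined list was made, the aligner and the PeakSeq settings were not given in the sources used here. Commented lines in the replicate 2 list record a liftover between builds. Neighbouring peaks on IV were never closer than 200 bp.

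Regions were placed by their midpoints, and overlap meant at least 1 bp. Density is the number of midpoints per Mb; the rest of IV ends at the last peak, 17472503. Shares have 95% Wilson intervals and their differences Newcombe intervals, both covering counting error only. Named regions are, per domain, the 5 with the best average rank over the replicates, the 2 widest, the longest and tightest runs (the tightest also among runs of at least 3 regions, a limit outside the rule), the longest gap, the extreme windows, and shared loci without a combined region. The members, lists and comparisons were chosen with earlier results of these data known. The step, the shoulder and the stretches of the large domain were chosen after the counts were seen. Overlap, density and merging were tested on simulated intervals. Python 3.11.15, NumPy 2.4.6, pandas 2.3.3, SciPy 1.17.1 and Matplotlib 3.10.9 were used. No WS220 genome or annotation was used, so no sequence is shown.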

Additional observations from a re-analysis of the deposited data

Results flagged for a closer look

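The densities of the 2 domains, relative to the rest of IV without its dense stretch, lay on opposite sides of 1 in both replicates. The large domain was at 1.19 times the rest in replicate 1 and 1.47 times in replicate 2, and the small domain at 0.805 and 0.891 times. This difference was not tested, and there are only 2 replicates. With the dense stretch kept in the rest of IV, the large domain was at 0.874 times the rest in replicate 1 and 1.02 times in replicate 2.

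The names of the peaks, which no comparison used, carry GEI-11 for all 565 combined regions of the domains, while the samples are labelled NHR-129. All 11110 regions of the combined list carry it as well. The part of this name in the results was not tested.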

How the results depend on the processing

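Of 76 alternatives to 11 results, 28 stayed within the spread between replicates or the counting interval, 46 moved by more, and 2 turned a ratio that stood further from 1 than the replicate SD; 5 of them were chosen after seeing the data. No paired analysis was possible because peak lists were analysed for the ChIP group alone.

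The ratio of the large to the small domain (1.87) turned to 0.962 with regions of 500 bp or more and to 0.479 with the large domain after the step. It was 3.42 before the step, 2.85 under 500 bp, 2.08 with both domains narrowed by 0.25 Mb, 1.48 with regions merged within 1 kb, 1.47 in the strongest 50%, 1.3 in regions of both replicates, and 1.48 to 1.65 in single replicate lists. These alternatives differ in which regions or windows enter, and the cause was not tested further. The ratio of the large domain to the rest of IV (1.06) was within that SD of 1, so it had no direction to turn, and its values fell on both sides of 1. It was 0.878 in regions of both replicates, 0.882 in the strongest 50%, 0.765 at 500 bp or more, 1.50 without the dense stretch, 1.94 before and 0.271 after the step, and 0.874 to 1.02 in single lists. That of the small domain (0.567) was 0.675, 0.602, 0.796 and 0.801 under the first 4 of these, 0.501 narrowed, 0.722 merged, and 0.592 to 0.619 in single lists.

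The share found in both replicates reached 93.6% in the large and 100% in the small domain in the strongest 50% of the combined list. With overlap by a single replicate required it was 47.2 to 52.8% and 62.7 to 64.0%. The replicate 1 share in the strongest 50% was 99.0% and 100%, and 69.0% of replicate 2 peaks of the large domain were shared. Median widths in regions of both replicates were 526 bp in the large and 584 bp in the small domain; single lists gave 348 to 368 bp and 482 to 503 bp, and the narrowed small domain 558 bp. Median -log10 q-values were 5.15 in the large and 6.77 in the small domain, with 17.2 and 15.3 in regions of both replicates, 4.93 and 6.43 narrowed, and 4.49 to 4.63 and 5.18 to 5.60 in single lists. The depth is unknown, so weak regions missing from a list cannot be told from regions below its detection limit.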
